A study of Mus musculus with 8 samples.

Results

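Long intergenic noncoding RNAs (lincRNAs) are spliced or unspliced transcripts that lie between protein-coding genes and are not translated into a known protein. The set described here holds the abundant lincRNAs of mouse brain, chosen as the rows of the deposited count table with the biotype lincRNA, a mean of at least 100 counts over 8 libraries, and a position outside chromosomes X and Y. The rule took 64 of the 5559 lincRNA rows and of 54532 rows in all; 66 reached the count and 2 of those lay on X. Members were thus selected on their mean count over both genotypes, and abundance is given below as a description. Just inside the limit were 4930570G19Rik (mean 107.25 counts), Snhg20 (103.75) and E430024I08Rik (102.125), and just outside it were AC165953.2 (99.5), 2010320M18Rik (99.25) and Gm40841 (97.75).

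The study sequenced RNA from brain tissue of male mice of 3 months, with 4 wild-type (WT) libraries and 4 libraries labelled Nsun5-KO. Nsun5 encodes a methyltransferase that acts on ribosomal RNA, and the series asks what its loss does to myelin and sleep. The protocol names 5 mice per genotype from 1 litter, anaesthetised with pentobarbital at 50 mg/kg, and does not say which mouse gave which library, so p-values measure the spread between these libraries. How the Nsun5-KO allele was made is not given in the sources used here.

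Some lincRNAs are among the most studied RNAs of the brain. Norad binds Pumilio proteins, which otherwise repress target messenger RNAs. Oip5os1, also called Cyrano, pairs with the microRNA miR-7 and directs its destruction. Malat1 sits in nuclear speckles, Neat1 builds paraspeckles, Miat (Gomafu) forms a separate nuclear domain in neurons, and Meg3 is an imprinted RNA read from the maternal copy. Other members are host transcripts from which microRNAs or small nucleolar RNAs are cut. In the deposited table Norad is listed as 2900097C17Rik and Oip5os1 as 1700020I14Rik; both are called by their common names below.

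Libraries held 15642086 to 17829523 counts and 22210 to 22944 detected genes. Nsun5 counts did not separate the labels, at 82 to 109 in WT and 83 to 124 in Nsun5-KO (edgeR log2 fold change 0.13, SE 0.15, with an adjusted p = 0.817), so each direction below is that of the label. The first principal component (25.7% of variance) set WT replicates 1 and 2 apart. Summed levels of 10 myelinating oligodendrocyte markers were 7144 to 7777 CPM (counts scaled to a common library size) in WT and 4650 to 6403 CPM in Nsun5-KO, and all 10 were below WT. For 7 neuron markers the sums were 5789 to 6290 CPM in WT and 6824 to 7425 CPM in Nsun5-KO, with 6 of 7 above WT. The 6 cortex and hippocampus markers had a median log2 fold change of 0.52 (sums 244 to 345 and 321 to 460 CPM), with 3 higher at an unadjusted p under 0.05. All 5 ependyma markers were lower at such a p (21.5 to 32.3 and 9.03 to 18.4 CPM). So were 9 of the 10 myelinating oligodendrocyte markers, while 4 of the 7 neuron markers were higher at such a p. Over all genes, 48.6% were above WT, and by the same edgeR p 5.30% were higher and 5.05% lower. Summed hypothalamic markers were 7.32 to 122 CPM in WT and 4.08 to 10.2 CPM in Nsun5-KO, and cerebellar ones 10.8 to 26.5 and 14.1 to 15.6 CPM, against a design text that names the whole brain. Striatal sums were 203 to 1206 CPM in WT and 319 to 1127 CPM in Nsun5-KO. Choroid plexus sums were 306 to 1139 and 51.5 to 1171 CPM. All 6 striatal and all 5 choroid plexus markers were below WT. These marker differences stand beside every comparison below, their part in the lincRNA values was not tested, and in bulk tissue fewer cells of a type and less RNA per cell cannot be told apart.

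Short sequences show how the leading members are known to act. The mature miR-7 sequences and the site for them in Oip5os1 are printed because Oip5os1 had the smallest p of the set; capitals mark the microRNA seed (bases 2 to 8) and, in the site, its match.
mmu-miR-7a-5p: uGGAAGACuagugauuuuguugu
mmu-miR-7b-5p: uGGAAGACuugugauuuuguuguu
Oip5os1 site: gaacaacaaaatcaccaatGTCTTCCa
The site lies at chr2:119602135-119602161 (GRCm38, the build also called mm10; plus strand), in exon 3 of 3 of the longest Oip5os1 transcript in GENCODE M21. Beyond the seed, 13 consecutive bases of the site pair with miR-7a-5p. At least 1 match to the miR-7 seed (GTCTTCC, sense strand) was present in the longest transcript of 20 members (31.2%), against 15.05% of all 55450 longest transcripts; members were not matched to those for length. MicroRNA sequences are from RefSeq.

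Norad is printed through 3 of its Pumilio elements (TGTANATA, where N is any base; capitals), since it is the most abundant member.
Norad element 1: aagtcctgTGTATATAatatgaaa
Norad element 2: aaacatgcTGTAAATAcctttttg
Norad element 3: cttttcttTGTACATAgtgtatgt
They lie at chr2:156392314-156392337, chr2:156391818-156391841 and chr2:156391629-156391652 (GRCm38, minus strand), in its single exon. The 4915-base transcript held 11 such elements between positions 651 and 3526, which placed it at rank 7 among 55450 longest transcripts. At least 1 element was present in 25 members (39.1%) and in 15.6% of all longest transcripts, again without matching for length. Miat held 11 copies of ACTAAC (rank 8), the motif through which it is known to bind the splicing factors Sf1 and Qk. A 55-base stretch of exon 7 of 7 at chr5:112217319-112217373 (minus strand) held 3 copies, in capitals.
Miat stretch: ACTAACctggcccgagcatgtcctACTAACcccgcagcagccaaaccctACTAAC
A match of letters describes the transcript and does not show that a protein or microRNA was bound.

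Abundance within the set was steep. Members took 0.369 ± 0.0109% of counts in WT and 0.375 ± 0.00991% in Nsun5-KO (SD, n = 4 each), so their summed share differed by less than the spread between libraries. Norad alone held 32.5 ± 1.02% of the members' counts in WT and 32.3 ± 1.04% in Nsun5-KO. With Oip5os1, Meg3 and 6330403K07Rik the share reached 65.8% in both. Mean counts ranged from 102.125 to 20125 with a median of 225; 8 members exceeded 1000 and 28 stayed under 200. Members lay on 18 chromosomes, with 8 on chromosome 5 and 7 on chromosome 3, and the deposited table lists 48 of them, Norad and Oip5os1 included, under a clone or model number.

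Compared per length, in FPKM (fragments per unit of gene length and of library size), the order began with Norad at 239.6 ± 1.20 in WT and 247.5 ± 11.1 in Nsun5-KO. Next came 6330403K07Rik at 184.8 ± 27.9 and 166.8 ± 11.5 FPKM, a gene that GENCODE M21 types as protein-coding. Oip5os1 had 70.9 ± 5.99 and 87.6 ± 4.45 FPKM. These 3 ranges did not overlap each other in either genotype. From Gm10076 (mean 32.1 FPKM over all libraries) through Tmem250-ps (26.6), B230209E15Rik (22.7), Meg3 (17.4), 2900052N01Rik (16.0) and Dbpht2 (14.2) to Gm20300 (13.1), neighbours in the order had overlapping library values. Neat1, whose exons cover 20771 bases, had the longest model and a mean of 1.16 FPKM.

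**Figure D1:**
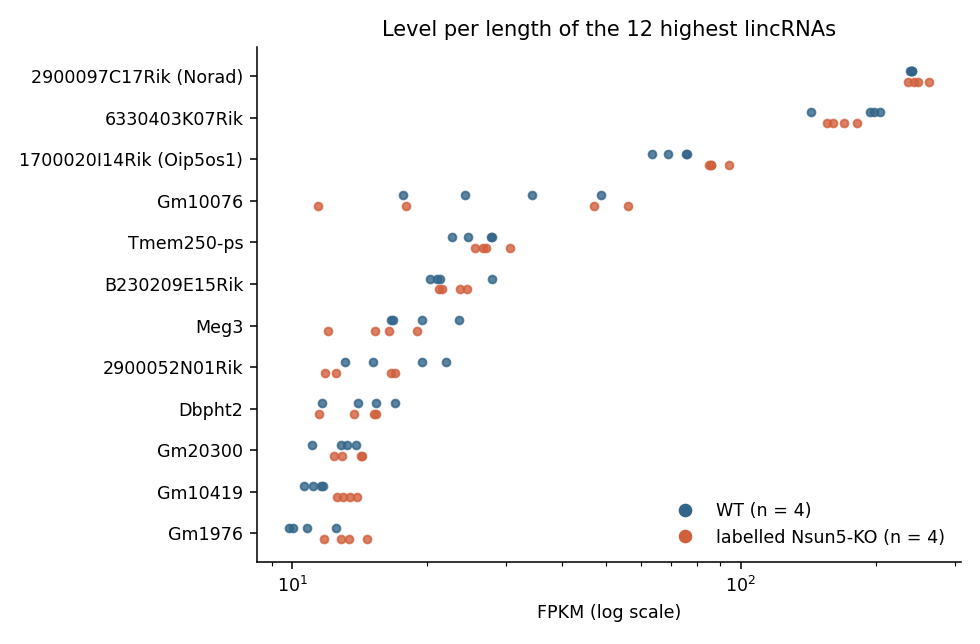
FPKM (log axis) of the 12 lincRNAs with the highest mean FPKM, 1 point per library, WT in blue and Nsun5-KO in orange. Norad, 6330403K07Rik and Oip5os1 stand above the rest, and Gm10076 has the widest spread.

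The genotype comparison called no member. EdgeR's quasi-likelihood test, adjusted over 16062 genes by Benjamini-Hochberg, called 0 of 64 members and 0.00% of all genes at an adjusted p of 0.05; the smallest member value was 0.313. Unadjusted, 6 members (9.38%) had a p under 0.05, a share near the 10.4% of all genes. Of these, 5 were higher (7.81%; 5.30% of all genes) and 1 was lower (1.56%; 5.05% of all genes). Library values of the genotypes did not overlap for 2 members (3.12%), both higher, against 5.70% of all genes (2.99% higher and 2.71% lower). DESeq2 called 1 member (1.56%), Oip5os1, which was higher, and 0.585% of 16058 genes (0.324% higher and 0.262% lower). Log2 fold changes of members ran from -0.29 to 0.37 with a median of 0.03 (quartiles -0.08 and 0.20), beside -0.01 over all genes. Above WT were 35 of 64 members (54.7%), beside 48.6% of all genes.

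**Figure D2:**
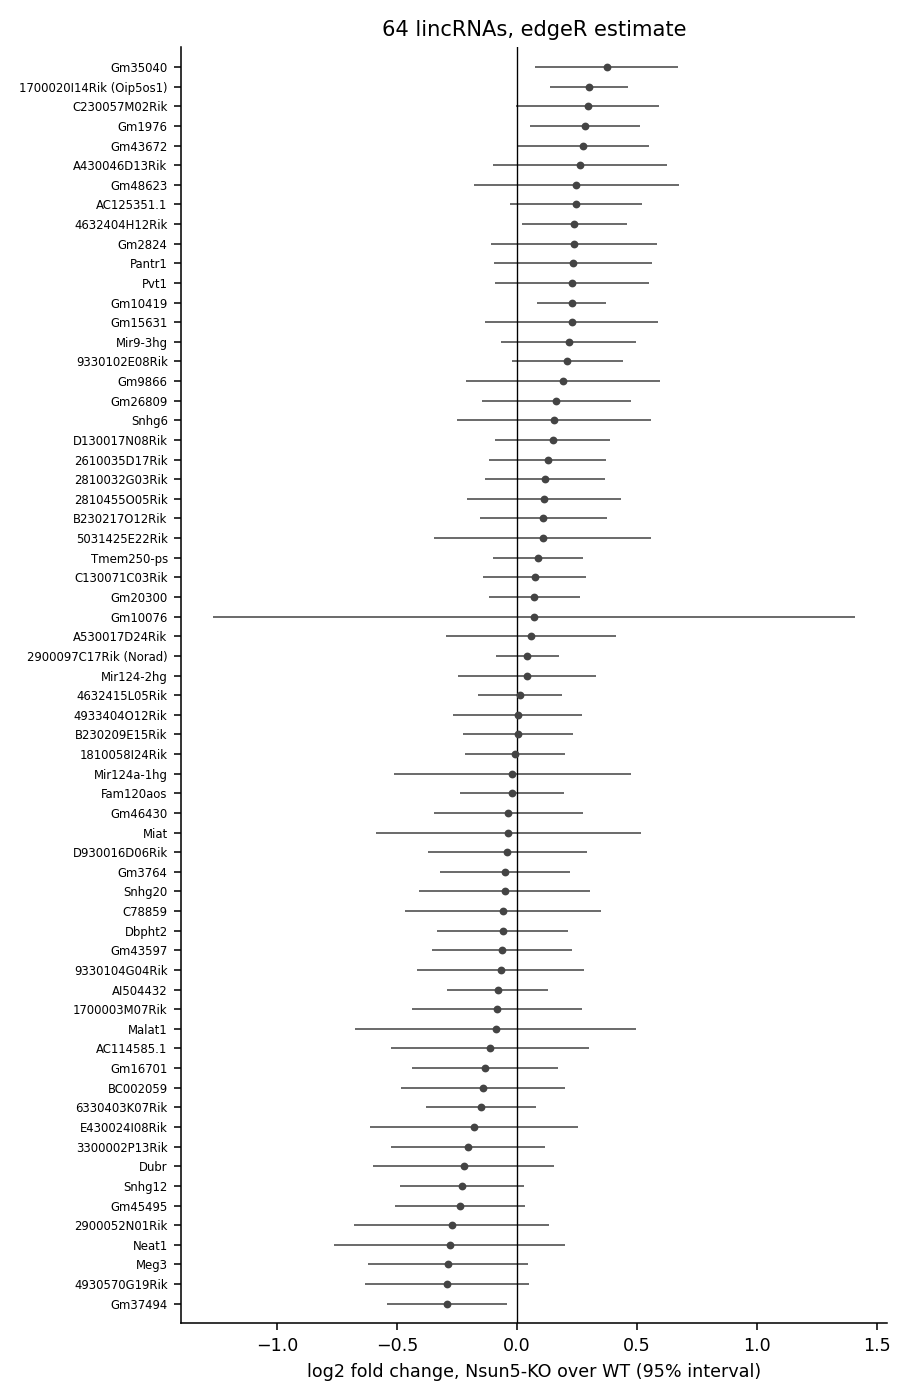
edgeR log2 fold change of Nsun5-KO over WT for each of the 64 lincRNAs (points) with 95% intervals (bars), ordered by size. Estimates run from -0.29 for Gm37494 to 0.37 for Gm35040, and the interval of Gm10076, -1.27 to 1.41, is the widest.

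Oip5os1 (ENSMUSG00000085438, chr2:119594297-119607502, plus strand, 3 exons) had 637, 533, 634 and 575 CPM in WT replicates 1 to 4. The libraries labelled Nsun5-KO had 717, 707, 785 and 719 CPM. Every Nsun5-KO library lay above every WT library, and Nsun5-KO replicate 3 stood apart at the top. The log2 fold change was 0.30 (SE 0.07, 95% interval 0.14 to 0.46; edgeR adjusted p = 0.313). The exact two-sided permutation p was 0.0286, the smallest that 70 labelings allow. DESeq2 gave an adjusted p of 0.038, which dropped out of the call when any library other than WT replicate 1 (0.0342) or WT replicate 3 (0.0109) was left out. Its printed miR-7 site is the base of its known role, and miR-7 itself, a small RNA, was not measured in these libraries.

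Gm10419 (chr5:108367769-108378239, plus strand) had 81.2, 80.5, 77.3 and 73.5 CPM in WT and 96.4, 86.6, 89.4 and 93.4 CPM in Nsun5-KO. Again the groups did not overlap (log2 fold change 0.23, SE 0.07, edgeR adjusted p = 0.328; exact permutation p = 0.0286). Its span overlaps that of the protein-coding model Gm42517, whose own log2 fold change was 0.06 (SE 0.09). The longest Gm10419 transcript shared no stretch of at least 75 bases at 98% identity with another gene. Other Gm10419 transcripts were not compared, and unstranded reads in any bases shared there cannot be assigned to either gene.

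Gm35040 had the largest estimate of the set. It had 29.0, 34.6, 46.0 and 33.9 CPM in WT and 51.8, 45.6, 49.2 and 39.1 CPM in Nsun5-KO (an edgeR log2 fold change of 0.37, SE 0.14, adjusted p = 0.412). WT replicate 3 reached into the Nsun5-KO range; without that library the value was 0.52, and DESeq2 then called it (adjusted p = 0.0075). Gm35040 lies 1640 bases beyond Mir9-3hg on the same strand of chromosome 7. Mir9-3hg, the host of a miR-9 gene, was at 0.21 (SE 0.13), with 20.2, 22.3, 28.8 and 25.9 CPM in WT and 31.0, 24.2, 25.4 and 32.1 CPM in Nsun5-KO. Mir9-3hg was lowest in WT replicates 1 and 2, and its groups overlapped.

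Gm1976 had 18.9 to 24.2 CPM in WT and 22.6 to 28.2 CPM in Nsun5-KO (0.28 on the log2 scale, SE 0.10, edgeR adjusted p = 0.412). GENCODE M21 types Gm1976 as a processed transcript, and 62 of the 64 members as lincRNA. 4632404H12Rik had 15.1 to 18.3 and 17.7 to 21.4 CPM (0.24, SE 0.10, adjusted p = 0.449). The single lower member at an unadjusted p under 0.05 was Gm37494, with 19.7 to 26.8 CPM in WT and 16.4 to 20.9 CPM in Nsun5-KO (-0.29, SE 0.12, adjusted p = 0.426). In all 3 the groups overlapped. Next by p came Gm43672 (log2 fold change 0.28), C230057M02Rik (0.29), 9330102E08Rik (0.21) and AC125351.1 (0.24), each with overlapping groups.

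**Figure D3:**
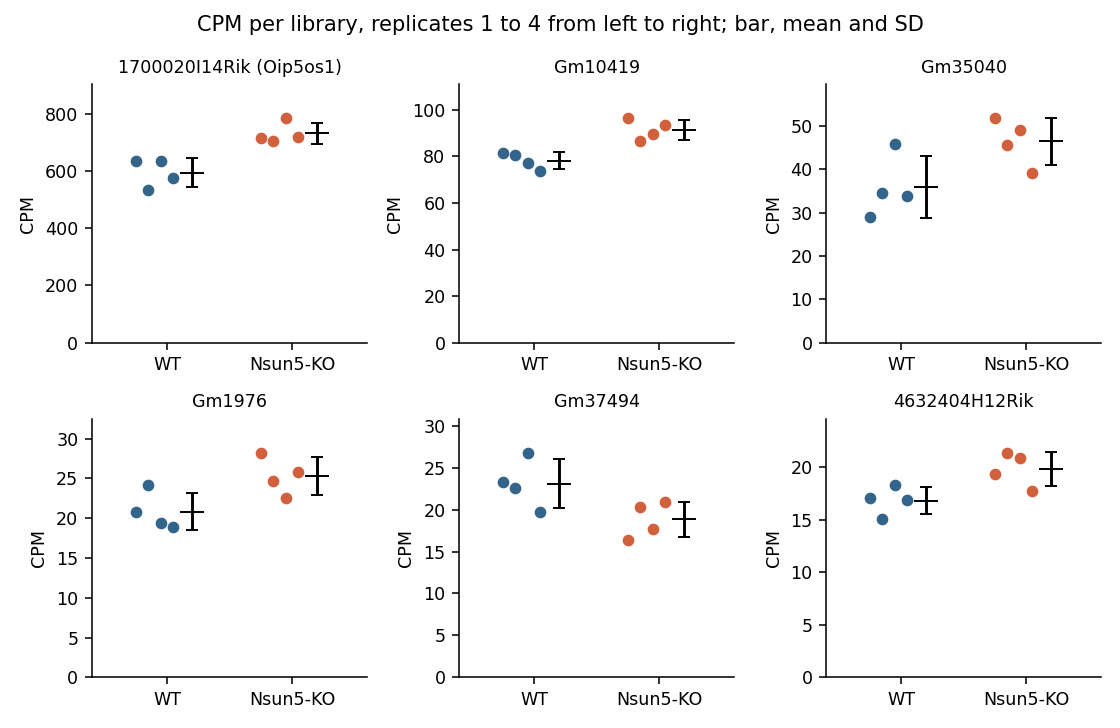
CPM by library (points, replicates 1 to 4 from left to right) with mean and SD (bars) for the 6 lincRNAs with an unadjusted edgeR p under 0.05. Oip5os1 and Gm10419 have no overlap between genotypes; the other 4 overlap.

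Norad varied little between libraries. WT libraries had 1188, 1195, 1182 and 1191 CPM, a coefficient of variation of 0.489%, the lowest WT value in the set. Nsun5-KO libraries had 1229, 1166, 1295 and 1208 CPM (4.39%; 2810455O05Rik was lower there, at 2.68%). The WT values lay within the range of the Nsun5-KO values, and the log2 fold change was 0.04 (SE 0.06, 95% interval -0.09 to 0.17; edgeR adjusted p = 0.853). In its transcript 51.6% of bases recur with at least 98% identity in Gm7292 at another locus, which had a mean of 32.1 counts.

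Meg3 and the RNAs of nuclear bodies varied widely between libraries of a genotype. Meg3 had 303, 356, 430 and 306 CPM in WT and 300, 346, 277 and 219 CPM in Nsun5-KO (a log2 fold change of -0.29, SE 0.15, with an edgeR adjusted p = 0.543). Rian, the next noncoding RNA of the same imprinted domain and no member by biotype, was at -0.04 (SE 0.09). Of 5 protein-coding genes of that domain, 5 were below WT, while 48.6% of all genes were above it. Begain (-0.002, SE 0.08), Rtl1 (-0.09, SE 0.34) and Dio3 (-0.73, SE 0.88) had an SE larger than the estimate. Lower at an unadjusted p under 0.05 were 1 of the 5 and 5.05% of all genes. That gene was the growth regulator gene Dlk1 (-1.67, SE 0.62, edgeR adjusted p = 0.438). Dlk1 had 69.4, 47.3, 10.4 and 24.4 CPM in WT and 8.24, 8.86, 11.4 and 18.8 CPM in Nsun5-KO, so WT replicates 1 and 2 were far above the rest and WT replicate 3 lay within the Nsun5-KO range. Without WT replicates 1 and 2 it was at -0.56, and without WT replicate 3 DESeq2 called it (-1.99, adjusted p = 0.00638).

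Malat1 had 64.3, 79.7, 103 and 52.9 CPM in WT and 76.8, 60.3, 93.5 and 51.0 CPM in Nsun5-KO (log2 fold change -0.09, SE 0.25). Neat1, 22036 bases from Malat1 on the same strand of chromosome 19, had 23.2, 18.9, 37.7 and 26.4 CPM in WT and 21.7, 27.9, 17.4 and 20.3 CPM in Nsun5-KO (-0.28, SE 0.21). Miat had 36.8, 31.7, 52.2 and 37.0 CPM in WT and 39.2, 48.6, 43.2 and 22.8 CPM in Nsun5-KO (-0.04, SE 0.24). The highest WT value of each was in WT replicate 3, and the groups overlapped throughout. Without that library Malat1 was at 0.10, Miat at 0.13 and Neat1 at -0.06, so the directions of the first pair turned. Malat1 (0.04) and Miat (0.15) turned as well without Nsun5-KO replicate 4.

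WT replicate 3 was the highest library for 14 of 64 members (21.9%), while it was highest for 12.5% of all genes. Nsun5-KO replicate 4 was the lowest for 12 members (18.8%), beside 9.13% of all genes. Nsun5-KO replicates 1 and 2 were each the highest for 11 members (17.2%), beside 9.95% and 11.6% of all genes. Without WT replicate 3, 12 members (18.8%) in place of 5 were higher at an unadjusted p under 0.05, beside 6.17% of the 16301 genes then tested, and edgeR still called none of the members.

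**Figure D4:**
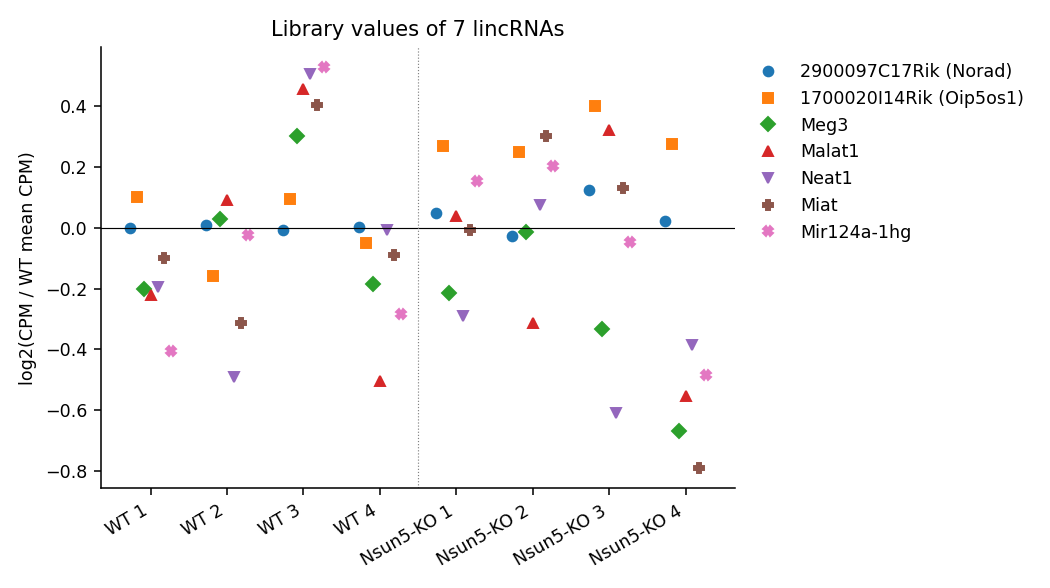
Log2 ratio of each library's CPM to the WT mean for 7 lincRNAs; the dotted line separates WT from Nsun5-KO. Norad stays near 0, Oip5os1 is above its WT mean in all 4 Nsun5-KO libraries, and Meg3, Malat1, Neat1, Miat and Mir124a-1hg are highest in WT replicate 3.

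Protein partners of the nuclear RNAs were compared as lists, against 48.6% of all genes above WT and 5.05% lower at an unadjusted p under 0.05. Of 16 paraspeckle proteins, 7 were above and 9 below WT (median log2 fold change -0.01), and 1, Nono, was lower at an unadjusted p under 0.05 (-0.17, SE 0.06, edgeR adjusted p = 0.412). Of 22 speckle and splicing proteins, 3 were above and 19 below WT (median -0.05), and 2 serine-arginine splicing factors had such a p, Srsf5 at -0.29 (SE 0.11) and Srsf6 at -0.18 (SE 0.07). Of 19 nuclear RNA processing and turnover genes, 0 had such a p. No gene of these lists was called.

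Of the 6 members on the list of small RNA host genes, 3 were above and 3 below WT, and no unadjusted p was under 0.05. Mir124a-1hg had 18.8, 24.4, 35.8 and 20.4 CPM in WT and 27.7, 28.6, 24.1 and 17.8 CPM in Nsun5-KO (log2 fold change -0.02, SE 0.22). Mir124-2hg, the host of another copy of the neuronal microRNA miR-124, had 34.7 to 37.9 CPM in WT and 27.2 to 44.2 CPM in Nsun5-KO (0.04, SE 0.13). Snhg12, a host of small nucleolar RNAs, which guide changes on ribosomal RNA, had 9.07 to 11.4 CPM in WT and 8.17 to 9.42 CPM in Nsun5-KO (-0.23, SE 0.12). Snhg6 was at 0.15 (SE 0.19) and Snhg20 at -0.05 (SE 0.16). Over the whole list of 25 tested host genes, members or not, 6 were above and 19 below WT, with a median of -0.10. Of these, 2 were lower at an unadjusted p under 0.05 with non-overlapping groups, Gas5 (-0.23, SE 0.09, edgeR adjusted p = 0.412) and Snhg1 (-0.35, SE 0.15, adjusted p = 0.458). Over all genes 48.6% were above WT, 5.05% were lower at such a p and 2.71% were lower without overlap. Gas5 and Snhg1 are typed as processed transcripts in the deposited table and so fall outside the set.

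The miR-9 sequence of the Mir9-3hg locus is shown for its seed, which differs from that of miR-7.
mmu-miR-9-5p: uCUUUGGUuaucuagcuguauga

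Of the remaining listed RNAs, Pvt1, the neighbour of Myc, had 5.67 to 7.86 CPM in WT and 7.09 to 8.64 CPM in Nsun5-KO (log2 fold change 0.23, SE 0.15). Among 10 tested RNAs beside neural transcription factor genes, 3 were above and 7 below WT, while 48.6% of all genes were above it. The single member there was Pantr1, with 23.1, 28.4, 40.5 and 33.8 CPM in WT and 38.4, 40.3, 36.2 and 32.9 CPM in Nsun5-KO (0.23, SE 0.15). Pantr1 was lowest in WT replicates 1 and 2, and without those libraries it was at -0.01. Pantr2, outside the set by biotype and with a mean of 24.4 counts, was at -0.56 (SE 0.33, edgeR adjusted p = 0.593). Its groups did not overlap. Sox2ot, also outside by biotype, was at -0.52 (SE 0.12), again with non-overlapping groups. Over all genes, 2.71% were lower without overlap. EdgeR did not call Sox2ot (adjusted p = 0.307), while edgeR without the low-count filter (0.0253) and DESeq2 (0.0392) did. Of 4 tested imprinted noncoding RNAs from other domains, 2 were above and 2 below WT. Higher at an unadjusted edgeR p under 0.05 was 1, Peg13, beside 5.30% of all genes. Peg13 was at 0.27 (SE 0.08, edgeR adjusted p = 0.355) with overlapping groups. Without WT replicate 3, DESeq2 called Peg13 (adjusted p = 0.0374).

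By the deposited coordinates, 13 members start head to head with a protein-coding gene, on opposite strands and within 1000 bases of its start. In 9 of these pairs both estimates had the same sign, 8 above and 1 below WT. Every neighbour but Fam120a (-0.03) was above WT, beside 48.6% of all genes. Whether the signs matched thus mostly followed the member's own sign. No neighbour was called, and their log2 fold changes ran from -0.03 to 0.27. Pantr1 at 0.23 stood beside Pou3f3, a neural transcription factor gene, at 0.27 (SE 0.16). Gm43672 at 0.28 stood beside Tbl1xr1 at 0.23 (SE 0.11), and 4632404H12Rik at 0.24 beside Ube2q1 at 0.08 (SE 0.06). Of the 13 neighbours, 2 had an unadjusted p under 0.05, both higher, beside 10.4% of all genes (5.30% higher). These 2, named after their values were seen, were Cntn4 (0.25, SE 0.09), beside Gm15631 (0.23), and Fam78b (0.19, SE 0.09), beside Gm16701 (-0.13). Both members of a pair come from the same libraries. With unstranded reads, a transcript that crosses the start of the other could be counted for either gene, depending on a counter that is not named.

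A further 30 members lay more than 10000 bases from any protein-coding gene, and 4 overlapped one. The median log2 fold change was 0.03 for the 30 distant members and 0.11 for the 13 that start head to head.

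**Figure D5:**
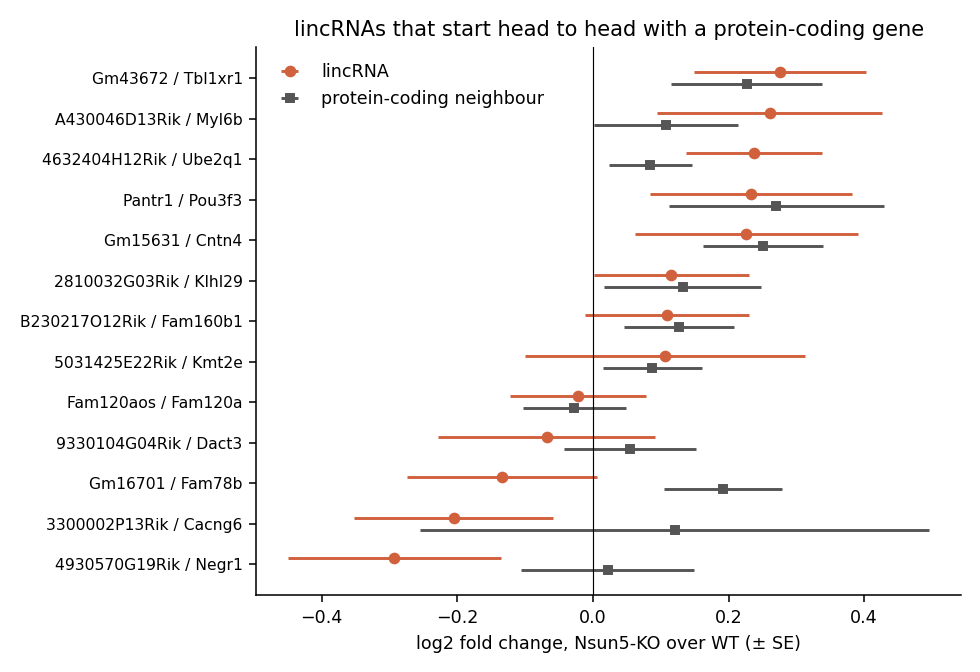
edgeR log2 fold change with SE (bars) for the 13 lincRNAs that start head to head with a protein-coding gene (circles) and for that gene (squares). In 9 pairs both estimates lie on the same side of 0, and every neighbour but Fam120a lies above 0.

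Promoters (250 bases before to 50 after the start, RefSeq, GRCm38.p6) were found for 37 members and 27025 genes in all. On either strand, CCAAT was present in 51.4% of the members' promoters and 37.9% of all, GGGCGG in 45.9% and 35.9%, TATAAA in 13.5% and 14.2%, CACGTG in 8.11% and 7.24%, and TGACGTCA in 8.11% and 1.88%; none of these motifs contains another. The last is 3 promoters. The median number of CpG pairs was 13 in members and 7 in all.

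Shared sequence limits a few values. Gm10076, with 6.86, 9.43, 13.2 and 18.8 CPM in WT and 21.6, 6.91, 18.1 and 4.43 CPM in Nsun5-KO, had the largest coefficient of variation, 65.7% in Nsun5-KO. Its 384-base model matches Rpl41, a ribosomal protein gene, over 99.7% of its length, so its count is uncertain; Rpl41 was at -0.28 (SE 0.10, edgeR adjusted p = 0.412). Of 64 members, 39 shared no stretch of at least 75 bases at 98% identity with another gene, 10 shared at least 10% of their bases and 2 at least 50%.

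Among the remaining abundant or variable members, Tmem250-ps was at 0.09 (SE 0.09), Gm20300 at 0.07 (SE 0.09), B230209E15Rik at 0.00 (SE 0.11), Dbpht2 at -0.06 (SE 0.12) and 6330403K07Rik at -0.15 (SE 0.11). 2900052N01Rik had 71.8, 63.8, 49.6 and 42.8 CPM in WT and 38.6, 40.7, 55.1 and 54.1 CPM in Nsun5-KO (-0.27, SE 0.18). It was highest in WT replicates 1 and 2, and without them it was at 0.03. Near the limit of the rule, 4930570G19Rik was at -0.29 (SE 0.16) and E430024I08Rik at -0.18 (SE 0.20). All of these groups overlapped.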

How the data were processed

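Brain RNA of 4 WT and 4 Nsun5-KO libraries was measured; libraries were grouped by their titles. RNA came from a TRIzol extraction and libraries from the NEBNext Ultra RNA kit, per the labels' protocols; this kit does not mark strand. Reads were aligned with HISAT2 2.0.5 to mm10, per the submitters' processing notes; the sources used here name no counter, annotation or poly(A) selection. The deposited values are raw counts per gene and FPKM, which the authors computed from those counts; FPKM equals count per length divided by 1 constant per library (0.981 to 1.02 times the total count). The members and gene lists were chosen with earlier results of these data known.

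Counts were tested with edgeR 4.0.16 (R 4.3.3): filterByExpr by group, TMM scaling, robust quasi-likelihood F test over all 8 libraries without covariates, Benjamini-Hochberg over 16062 genes. All 64 members passed the filter. CPM are TMM-scaled and given with the SD over 4 libraries. Named were the 12 members with the highest FPKM, the 10 with the smallest p, the 10 with the largest change, members of role lists, the 4 most variable, those nearest the threshold, Nsun5, neighbours within 5 kb of named members, and up to 3 genes per list by p. Not every gene taken by that rule is printed. Genes outside it were chosen later, among them the sequence copies Rpl41 and Gm7292 and the neighbours Cntn4 and Fam78b. Alternatives were DESeq2 1.42.0, voom and FPKM fits in limma 3.58.1 (pseudocounts 1 and 0.1), other scalings, no filter, other count limits, a replicate block, and libraries left out. In simulated counts for this comparison (15864 genes), edgeR recovered 6% of 50 genes changed 1.25-fold, 52% at 1.5-fold, 88% at 2-fold and 98% at 4-fold, and 6.15% of calls were unchanged genes. The simulated libraries were drawn independently and gave 130 calls, while the real ones gave 0. These rates need not hold for the real libraries. Counts of replicates differed by more than sampling noise in every pair of a group (chi-square per degree of freedom 7.22 to 20.4). Coordinates are those of the deposited table; GENCODE M21 gave the same for 63 of 64 members. Shared sequence was found with blastn 2.17.0.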

Additional observations from a re-analysis of the deposited data

Results flagged for a closer look

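Among the named members, 3 libraries stood apart from the other 3 of their group by Dixon's test, out of 64 groups looked at; over all members it was 7 of 128 groups, and chance flags about 1 in 20. Oip5os1 in Nsun5-KO replicate 3 had 785 CPM, above the other Nsun5-KO libraries. B230209E15Rik in WT replicate 2 had 49.4 CPM, above the other WT libraries. AC125351.1 in Nsun5-KO replicate 2 had 14.2 CPM, below the other Nsun5-KO libraries.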

How the results depend on the processing

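Of 32 named members, 18 kept their direction in every setting and 29 in every setting that used all 8 libraries; 16 of 19 other genes kept theirs in every setting. Over all genes, edgeR without the low-count filter called 68 and DESeq2 94, against 0, and edgeR 0 to 2 with each library left out (2 without Nsun5-KO replicate 4). DESeq2 called 1 member, and 0 to 2 with each library left out, an alternative chosen after seeing the data; Oip5os1 and Gm35040 were the 2 without WT replicate 3. Members lower at an unadjusted p under 0.05 were 2 in place of 1 with voom and both FPKM fits. With each library left out, 2 to 12 were higher (2 without Nsun5-KO replicate 1, 3 without WT replicate 1 or 4, 12 without WT replicate 3) and 1 to 3 lower (2 without WT replicate 1 or Nsun5-KO replicate 2, 3 without WT replicate 4). Those were 3.12% to 18.8% of members higher and 1.56% to 4.69% lower, beside 3.17% to 6.17% and 3.80% to 5.82% of all genes. Without WT replicates 1 and 2, 3 members were higher and 2 lower. Without Nsun5-KO replicates 1 and 3, 3 members were higher. Shares over all genes are not given for these pairs, voom and FPKM. A limit of 50 counts gave 8 higher and 3 lower of 123 lincRNAs, and a limit of 500 gave 3 higher and 0 lower of 17. Both limits used the edgeR fit of all 8 libraries, where 5.30% of all genes were higher and 5.05% lower at such a p. The members' median lay between 0.00 and 0.08 with each library left out.

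Same-numbered libraries did not deviate together (correlations -0.11, -0.21, -0.04 and 0.06), and differently numbered ones ran from -0.17 to 0.18. The library titles do not say whether equal numbers mark a pair, and these correlations cannot settle it. With a replicate block edgeR called 0 members, and Gm10076 was at -0.0614 and Mir124a-1hg at 0.000702. Gm10076 was also at -0.179 with voom, -0.0914 and -0.102 with FPKM (pseudocounts 1 and 0.1), -0.339 without WT replicates 1 and 2 and -1.096 without Nsun5-KO replicates 1 and 3. Mir124a-1hg was at 0.00453 with voom and at 0.00371 and 0.00671 with FPKM. With upper-quartile scaling B230209E15Rik was at -0.0208. Without WT replicates 1 and 2, Tmem250-ps was at -0.0243, 2900052N01Rik at 0.0266, Dbpht2 at 0.114, Pantr1 at -0.0088, E430024I08Rik at 0.143, Rian at 0.125, Pou3f3 at -0.0201 and Gm42517 at -0.0563. Without Nsun5-KO replicates 1 and 3, Norad (2900097C17Rik) was at -0.00338, B230209E15Rik at -0.0178, Gm20300 at -0.0170, Snhg20 at 0.0468 and Gm42517 at -0.0124. With each library left out, edgeR and DESeq2 gave Gm10076 -0.309 to 0.381, B230209E15Rik -0.0449 to 0.122, Dbpht2 -0.151 to 0.0283, Malat1 -0.254 to 0.107, Miat -0.175 to 0.154, Mir124-2hg -0.0548 to 0.168, Mir124a-1hg -0.136 to 0.214, Snhg20 -0.192 to 0.0152, Rian -0.105 to 0.0416 and Gm42517 -0.00536 to 0.126. The cause of these turns was not tested. In the simulated counts a 1.25-fold change was mostly missed, a rate that need not hold for the real libraries.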
